A study of Phoxinus septimaniae with 18 samples.

Results

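The genes described here are 200 assembled genes whose RNA was abundant in minnow gills and scarce in minnow brain and liver. Their transcripts carry no tag for a transmembrane segment. The 200 genes were chosen from 36271 assembled genes in all. A gene had to match a zebrafish protein as its first listed hit on at least 1 transcript, to lack a transmembrane tag on every transcript, and to reach a mean level in gills of at least 20 times that in brain and at least 20 times that in liver. Of 9701 gill genes with such a hit and no such tag, 1703 passed this ratio, and the 200 with the highest mean level in gills were kept. Levels are in CPM, the counts of a gene per 1000000 counts of its library. Since levels in the 3 tissues chose the genes, the difference between tissues is described below and was not tested.

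The fish were wild invasive minnows (Phoxinus septimaniae x P. dragarum) of the Llobregat River. The salt group came from a station beside a potash mine at 18.1 ppt, and the reference group from a less saline station upstream. Gills, brain and liver had 3 libraries per station, 18 in all, which the labels call biological replicates. The design text speaks of 3 fish per station, whereas the library codes without their tissue letter name 9 individuals over the 3 tissues. Brain and liver carry the same codes, and gills share only 3 of them. Levels in gills and in the other tissues were thus compared partly between different codes. Codes of reference gills 2 and 3 hold a letter, A, that no other library code holds, and its meaning is not labelled. No age, sex or experimental exposure is labelled, and salinity cannot be told apart from whatever else differs between the sites. Total counts were 15200774 to 24222245 per gill library, 23678725 to 28731252 per brain library and 22183499 to 39881549 per liver library. The gill libraries labelled salt 3 and reference 1 nearly matched: across the 200 genes they were closer than any other pair of gill libraries. The tests and counts between the stations are therefore given with and without these libraries. Values given for salt gill 3 and reference gill 1 are those of the libraries so labelled. Whether either label is wrong was not tested.

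The fish gill is a thin epithelium that exchanges gases, ions, acid and nitrogenous waste with the water. Pavement cells cover most of it, mucous cells release secreted glycoproteins onto its surface, and ionocytes take up salts in fresh water and excrete them in saline water. Blood, cartilage of the filaments and immune cells are part of any gill sample. The identifiers pair zebrafish protein accessions with no gene names, so the genes are given by their assembly number and accession, without roles. Of 84 marker and pathway symbols, 0 matched a tag, so neither the tissue nor the description as soluble or secreted could be checked against defining markers.

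Levels in gills were led by 2 genes. DN17494_c0_g1, with the hit ENSDARP00000034327, stood at 6979, 4387 and 7706 CPM in salt gills 1, 2 and 3, and at 7324, 9432 and 6821 CPM in reference gills 1, 2 and 3. DN6420_c1_g1, with the hit ENSDARP00000120686, stood at 4752, 5840 and 5901 CPM in salt gills and at 5419, 4958 and 4740 CPM in reference gills. Both were high in every gill library, and the stations overlapped for both. Together they took 1.02 to 1.36% of all counts in salt gills and 1.16 to 1.44% in reference gills. The next 8 genes averaged 594 to 1358 CPM, and the median gene averaged 77.7 CPM. In all, 4 genes averaged over 1000 CPM, 83 over 100 CPM and 135 over 50 CPM. The 200 genes held 4.30, 3.76 and 4.47% of the counts of salt gills 1, 2 and 3 and 4.27, 4.64 and 3.22% of those of reference gills 1, 2 and 3. These are bulk tissues, in which fewer cells of a type and less RNA per cell cannot be told apart.

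**Figure D1:**
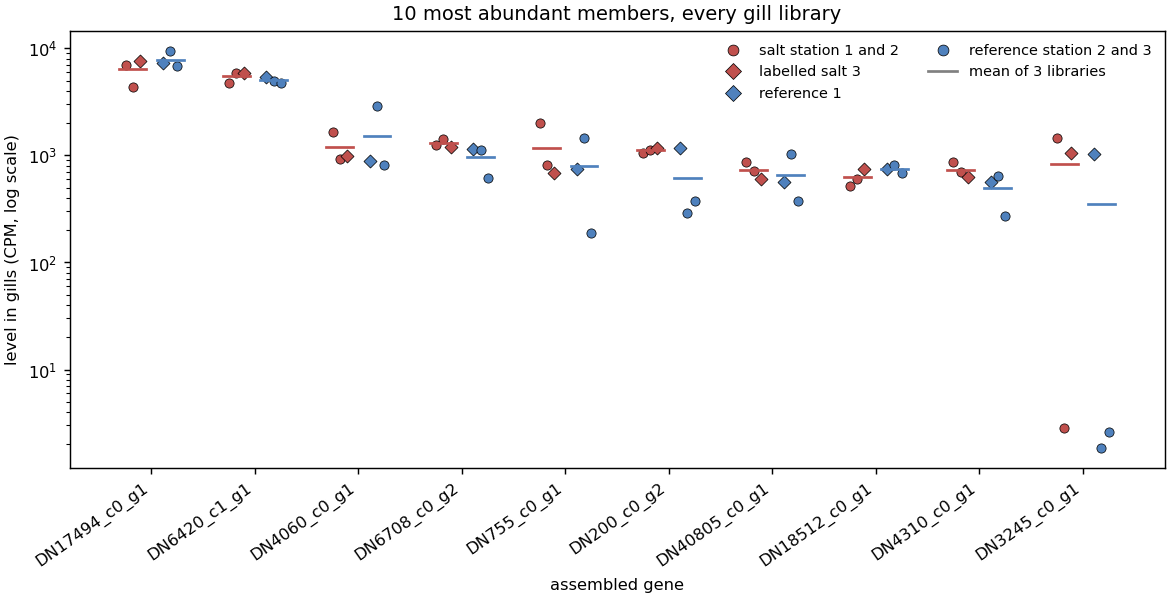
Level in gills (CPM, log scale) of the 10 most abundant members in each of the 6 gill libraries, salt in red and reference in blue, with bars at the mean of 3 libraries; diamonds mark the library labelled salt 3 and reference 1. The 2 leading genes lie between 4387 and 9432 CPM in all libraries, whereas DN3245_c0_g1 lies at 1041 CPM or more in 3 libraries and under 3 CPM in the other 3.

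Of the 10 most abundant members, 8 varied by under 5-fold among gill libraries. DN4060_c0_g1 (hit ENSDARP00000007799) stood at 1666, 931 and 989 CPM in salt gills and at 884, 2865 and 816 CPM in reference gills, so that reference 2 was highest. DN6708_c0_g2 (hit ENSDARP00000055240) stood at 1265, 1428 and 1197 CPM in salt gills and at 1152, 1112 and 609 CPM in reference gills. Its libraries labelled salt lay above all its reference libraries. DN755_c0_g1 (hit ENSDARP00000109649) stood at 1992, 821 and 693 CPM in salt gills and at 744, 1440 and 187 CPM in reference gills, and salt 1 exceeded reference 3 by 10.6-fold. DN200_c0_g2 (hit ENSDARP00000069334) stood at 1059, 1120 and 1170 CPM in salt gills and at 1170, 292 and 376 CPM in reference gills. Its reference libraries 2 and 3 were low, and reference 1 matched the library labelled salt 3. DN40805_c0_g1, DN18512_c0_g1 and DN4310_c0_g1, with the hits ENSDARP00000107339, ENSDARP00000007535 and ENSDARP00000123375, averaged 731 ± 132, 624 ± 119 and 736 ± 125 CPM (SD, n = 3) in salt gills. In reference gills they averaged 653 ± 335, 751 ± 67.9 and 491 ± 197 CPM. The stations overlapped for each of these 3 genes.

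Outside gills the genes were scarce by the rule that chose them, and many were not listed. Each tissue table holds transcripts with at least 1 CPM in at least 2 of its libraries, so a gene missing from a table was under this filter and need not have been at 0. Of the 200 genes, 103 were missing from the brain table, 135 from the liver table and 87 from both. Among the 9701 gill genes with a zebrafish hit and no transmembrane tag, 20.4% were missing from the brain table and 33.0% from the liver table. The members that were listed had a median of 2.03 CPM in brain and 2.41 CPM in liver. The median ratio of gills to brain was 54.5 over the 97 members listed in brain, and that of gills to liver was 48.3 over the 65 listed in liver. Both leading genes remained detectable elsewhere. DN17494_c0_g1 averaged 7108 CPM in gills, against 215 CPM in brain and 94.6 CPM in liver, and DN6420_c1_g1 averaged 5268 CPM in gills, against 85.2 CPM in brain and 149 CPM in liver. DN4060_c0_g1 averaged 1358 CPM in gills, against 3.92 CPM in brain, and was not listed in liver.

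**Figure D2:**
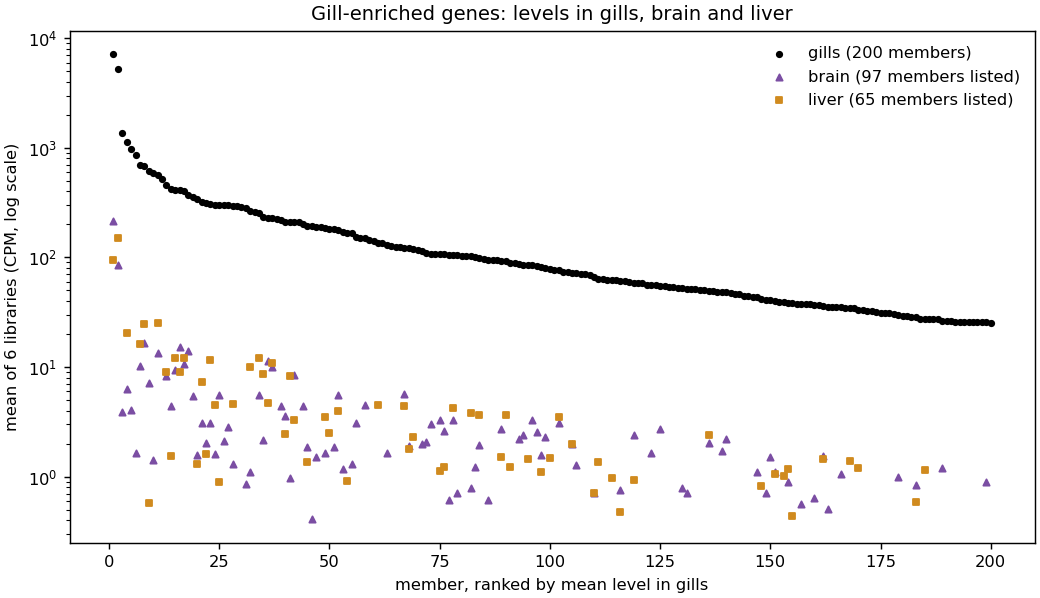
Mean level over 6 libraries (CPM, log scale) of each member in gills (black), brain (purple triangles) and liver (orange squares), ranked by the level in gills; members missing from the brain or liver table have no point there. The gap between tissues was set by the rule, and the levels in brain and liver reach at most 215 and 149 CPM.

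The thresholds cut through a continuous range of values. DN14317_c1_g1 was the last gene kept, at 25.4 CPM in gills, and DN24897_c0_g1 was the first left out for its level, at 25.1 CPM. DN15461_c0_g1, at 230 CPM in gills and 11.3 CPM in brain, was just inside the ratio, and DN2403_c4_g1, at 358 CPM in gills and 18.1 CPM in brain, was just outside it with a ratio of 19.8. A ratio of 10 in place of 20 kept 109 of the 200 genes, since more abundant genes then passed and took the other places. A ratio of 50 kept 140, since 60 members are under it, among them DN17494_c0_g1 with a ratio of 33.1 to brain and DN6420_c1_g1 with a ratio of 35.4 to liver.

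A signal peptide marks proteins for secretion or for the membrane system, and a tag for it was carried by 86.2% of the 767 member transcripts with a zebrafish first hit. The tag was carried by 85.7% of such transcripts among all 9701 gill genes from which the members were drawn. It was carried by 88.1% of all 33033 gill transcripts with a zebrafish first hit and by 12.6% of gill transcripts with no hit. The tag thus went with having a hit, so it does not show that a member is secreted. Counted by gene, 183 of the 200 members (91.5%) had the tag on at least 1 such transcript, against 83.4% of the 9701 genes. Members had a median of 4 transcripts in gills, and the 9701 genes a median of 2, so members had more transcripts on which a tag could stand. By transcript the members thus carried the tag about as often as the genes they were drawn from. Among the 5 most abundant members with the tag, DN755_c0_g1 and DN200_c0_g2 carried it on all of their transcripts, 7 and 5 in number. DN4060_c0_g1 and DN6708_c0_g2 carried it on both of theirs, and DN17494_c0_g1 on 2 of 4. DN6420_c1_g1 carried no such tag on either of its 2 transcripts.

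The 200 genes named 194 distinct zebrafish proteins, and 12 genes shared a hit with another member. Some members were neighbours in the assembly: 7 assembly clusters held 17 members, which may share sequence, so that reads can be split among them. DN2986_c1_g1 and DN2986_c0_g1 both matched ENSDARP00000112716, and DN2986_c1_g2 matched ENSDARP00000118718. DN2986_c1_g1 stood at 61.1, 163 and 69.1 CPM in salt gills and at 58.9, 52.8 and 38.7 CPM in reference gills, and DN2986_c1_g2 at 45.4, 111 and 44.7 CPM in salt gills and at 39.9, 36.7 and 28.7 CPM in reference gills. Salt gill 2 was the highest library for both. Such neighbours are not independent observations. For 137 members no other gill gene listed the same zebrafish protein, and for 63 at least 1 did; in 20 of these the other genes together exceeded the member.

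The members differed widely among individual gill libraries. The median coefficient of variation over the 6 gill libraries was 42.7% for the 200 members, against 21.8% for the other 3767 gill genes with a zebrafish hit, no transmembrane tag and a mean of at least 25.4 CPM. The highest library exceeded the lowest by at least 20 times in 27 members (13.5%), against 59 of the 3767 other genes (1.57%), and by under 2 times in 40 members (20%), against 59.9% of the others. A library with under 3 counts was taken at 3 counts in these ratios. Members were taken by their mean level, which a few high libraries can raise, and so were the other genes. The members alone also had to pass the ratio between tissues, which was taken partly over different codes. DN42270_c0_g1 was high only in salt gill 2 and reference gill 2, whose codes no brain or liver library carries. How far the ratio brought in variable genes was not tested. With medians in place of means the rule kept 162 of the 200. These figures describe the list and were not tested.

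The steadiest members by this measure were DN61045_c0_g1, DN6420_c1_g1 and DN20475_c0_g1. DN61045_c0_g1 (hit ENSDARP00000061954) stood at 248, 225 and 196 CPM in salt gills and at 215, 196 and 239 CPM in reference gills, a coefficient of variation of 9.92%. DN20475_c0_g1 (hit ENSDARP00000125388) stood at 77.9, 87.5 and 84.3 CPM in salt gills and at 84.1, 67.1 and 90.8 CPM in reference gills, a coefficient of variation of 10.3%. No library stood out for either gene, and the stations overlapped.

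At the other end were members that were abundant in some fish and almost missing in others. DN3245_c0_g1 (hit ENSDARP00000018938) stood at 1467, 2.85 and 1050 CPM in salt gills 1, 2 and 3, and at 1041, 1.84 and 2.61 CPM in reference gills 1, 2 and 3. It was high in 2 libraries labelled salt and 1 reference library and low in the others, and no other gill gene listed its hit. DN1117_c4_g1 (hit ENSDARP00000014703) had 6314, 0 and 7413 counts in salt gills and 6559, 8982 and 8400 counts in reference gills. Only salt gill 2 had 0 counts, at least 4771-fold below reference 2 against a bound of 3 counts per library, and here too no other gill gene listed the hit. In brain the gene was present in all 6 libraries, at 4.52, 4.81 and 2.66 CPM in salt fish and at 7.18, 6.76 and 6.80 CPM in reference fish. DN8886_c0_g1 showed the same shape, with 2546, 3 and 1681 counts in salt gills and 1366, 1364 and 1245 counts in reference gills. Unlike for DN1117_c4_g1, 2 other gill genes listed its hit, and the total over the hit varied by 13.4-fold.

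There were 3 members at 0 counts in 4 of the 6 gill libraries. DN49107_c0_g1 (hit ENSDARP00000089045) had 5365 counts in the library labelled salt 3 and 4238 in reference 1, and 0 in the other 4. DN42270_c0_g1 (hit ENSDARP00000109296) had 3893 counts in salt gill 2 and 1981 in reference 2, and 0 in the other 4. DN4217_c0_g1 (hit ENSDARP00000109782) had 3349 counts in salt gill 1 and 3786 in reference 2, and 0 in the other 4. Each was thus present in 1 library labelled salt and 1 reference library. These 3 genes did not pass the filter on low counts used for the test between stations. For DN4217_c0_g1 the tissues could be compared within a code, the part of the library code that tissues share, which the labels do not tie to a fish in words. The code of salt gill 1 is that of salt brain 3 and salt liver 3, and the gene stood at 185 CPM in that gill, 10.1 CPM in that brain and 8.59 CPM in that liver. In the other brain and liver libraries it stood at 0 except in reference brain 2 (1.90 CPM) and reference liver 2 (3.21 CPM), which share a code that no gill library carries.

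**Figure D3:**
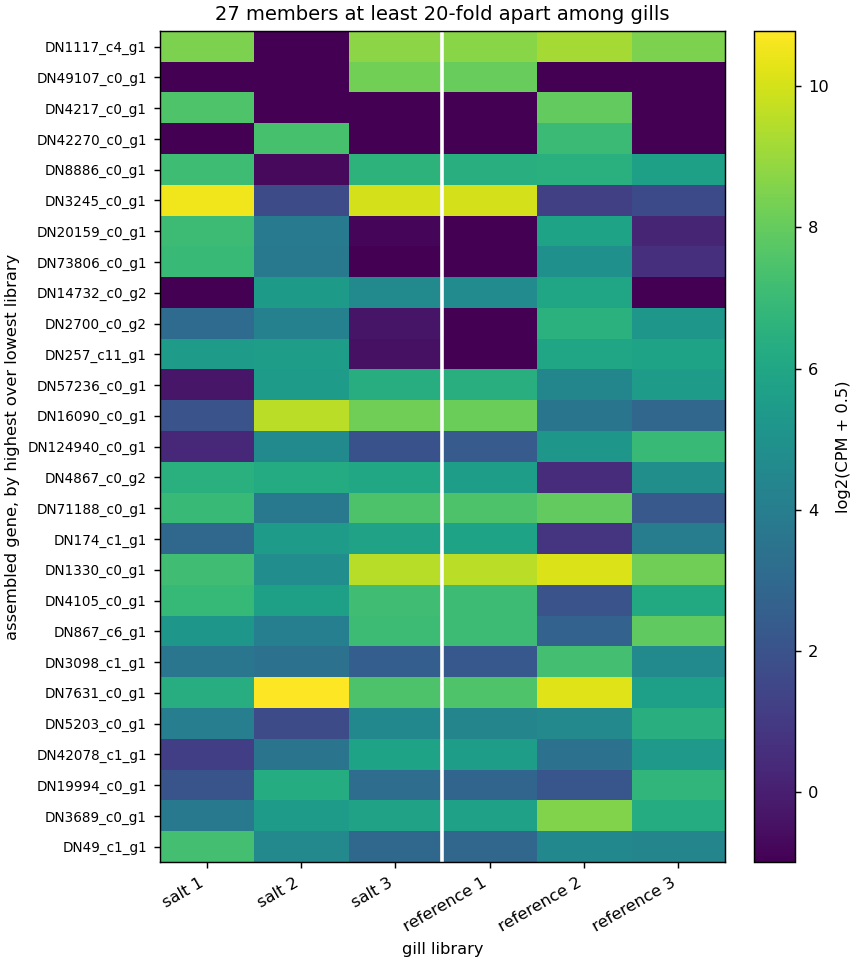
Level, as log2(CPM + 0.5), of the 27 members whose highest gill library exceeds the lowest by at least 20 times; columns are gill libraries, salt left of the white line and reference right of it, and rows run from the widest to the narrowest ratio. The columns of the library labelled salt 3 and of reference 1 are nearly the same in every row, and every row has, on both sides of the line, a library at or above 1 / 20 of its highest.

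A library was called low for a gene when it was under 1 / 20 of the highest library. All 27 genes had a library that was not low among those labelled salt and another among the reference libraries, and the library labelled salt 3 and reference 1 were on the same side in every one. Without both of these libraries, 24 genes had a library that was not low at both stations, 2 in salt fish alone and 0 in reference fish alone, and 1 was at 0 in the other 4 libraries. By a stricter cut, at 1 / 2 of the highest library, 18 of the 27 genes had libraries above it at both stations, 4 in salt fish alone and 5 in reference fish alone. Without both libraries, that cut gave 11 genes at both stations, 7 in salt fish alone and 8 in reference fish alone. By the cut at 1 / 20 and with all libraries, low libraries were spread over salt gills 1, 2 and 3 (10, 7 and 9 genes) and reference gills 1, 2 and 3 (9, 8 and 10 genes). The 3 members with the highest coefficients of variation were DN73806_c0_g1, DN3098_c1_g1 and DN4217_c0_g1. DN73806_c0_g1 (hit ENSDARP00000104512) stood at 121, 13.3 and 0 CPM in salt gills and at 0, 29.9 and 0.994 CPM in reference gills. The 3 other gill genes that list its hit, none of them a member, together held 4019, 3958 and 3916 CPM in salt gills and 3860, 3710 and 5885 CPM in reference gills, so that the total over the hit varied by 1.57-fold. DN3098_c1_g1 (hit ENSDARP00000108880) stood at 11.7, 9.91 and 5.33 CPM in salt gills and at 4.31, 153 and 24.6 CPM in reference gills, where reference 2 was far above the others.

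The variation was also computed over all gill genes that list the same protein. Of the 27 genes, 11 had a hit that no other gill gene listed, so this sum could not change their ratio. For the other 16, adding every gill transcript that lists the hit left 5 with a ratio of at least 20. Where other genes far exceed the member, as for DN73806_c0_g1, the total says little about the member itself. DN14732_c0_g2 stood at 0, 42.5 and 24.7 CPM in salt gills and at 25.3, 63.0 and 0 CPM in reference gills. Together with all gill transcripts of other genes that list its hit, ENSDARP00000106340, among them its neighbour DN14732_c0_g1, it reached 418, 212 and 416 CPM in salt gills and 396, 144 and 58.0 CPM in reference gills. Within members the leading transcript also changed between fish. Of 166 members with several transcripts, 108 (65.1%) had different most abundant transcripts among the gill libraries with at least 20 counts of the gene. This was so for 52.1% of 3184 other genes at that level. These sets were not matched by number of transcripts, and a gene with more transcripts has more that can lead.

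The closest 2 gill libraries across the members carried labels of different stations, and they were the closest over the 3767 other genes too. The median absolute difference on the log2(CPM + 0.5) scale was 0.10 between the library labelled salt 3 and reference 1, and 196 of the 200 members lay within 0.5 of each other. The other 14 pairs of gill libraries had medians of 0.50 to 0.79, with 65 to 100 members within 0.5. Without that pair, the 6 pairs of the same station had medians of 0.50 to 0.79 and the 8 pairs across stations 0.51 to 0.78. The library labelled salt 3 lay at 0.50 and 0.56 from salt 1 and 2, and at 0.78 and 0.63 from reference 2 and 3. Reference 1 lay at 0.51 and 0.54 from salt 1 and 2, and at 0.79 and 0.61 from reference 2 and 3. Over the 3767 other genes, reference 3 was nearer than salt 2 to both. For 97 of 194 members with at least 20 counts over both libraries (50%), the counts of the library labelled salt 3 and reference 1 differed by more than the 95% range of sampling noise by a chi-square, so the 2 libraries were not copies within counting error. In the other pairs 86.9 to 96.4% of members did. The range covers counting error on library totals alone, so it cannot tell a repeated sample from a different fish. All 27 of the most variable members put the library labelled salt 3 and reference 1 on the same side, low or not low.

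**Figure D4:**
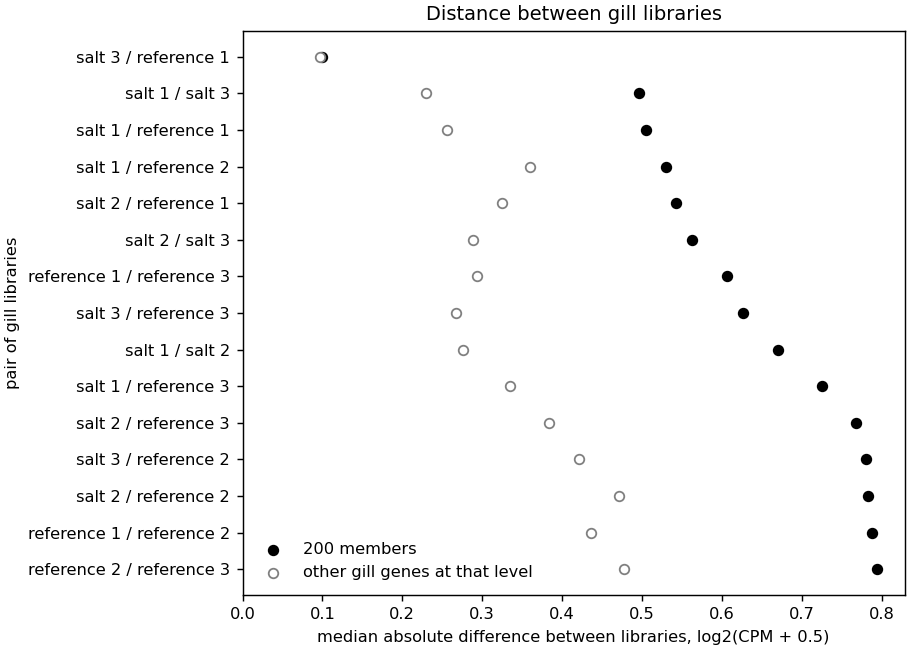
Median absolute difference on the log2(CPM + 0.5) scale between each pair of gill libraries, over the 200 members (filled) and over the 3767 other gill genes at that level (open). The library labelled salt 3 and reference 1 lie near 0.10 in both; for the other 14 pairs the members lie between 0.50 and 0.79.

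The stations were compared in gills over all genes, the question being how gills of fish from the saline site differ. This contrast was not used to choose the members. edgeR's quasi-likelihood test called 0 of the 197 members that passed its filter on low counts, at an adjusted p under 0.05, and 0 of 22958 genes in all (0%). At an unadjusted p under 0.05 it gave 1 member higher (0.588% of all genes) and 5 lower (0.462% of all genes) at the salt station. The split turned round without reference 1, with 14 members higher (2.05% of all genes) and 7 lower (1.38% of all genes). Over all genes more were higher than lower in both fits. DESeq2 called 0 members at an adjusted p under 0.05 (0% of all genes), and 10 stood at an unadjusted p under 0.05 (2.07% of all genes). The median log2 fold change, salt minus reference, was -0.04 over the members and 0.03 over all genes, with 91 members above 0 and 106 below. Without scaling between libraries the median was 0.026 over the members and 0.091 over all genes, so both medians lay higher. In absolute size the medians were 0.32 over the members and 0.32 over all genes.

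DN1727_c0_g1 (hit ENSDARP00000093251) had the smallest unadjusted p of all members. It stood at 223, 272 and 103 CPM in salt gills 1, 2 and 3 and at 89.6, 85.5 and 85.1 CPM in reference gills. Salt 1 and 2 were well above every reference library, and the library labelled salt 3 was slightly above. Its estimated log2 fold change was 1.13 (SE 0.36; edgeR adjusted p = 1.00), and 1.45 (SE 0.23; edgeR adjusted p = 0.908) without the library labelled salt 3. DESeq2 called the gene without that library (1.42, SE 0.19, adjusted p = 6.91e-10) and without both that library and reference 1 (1.45, SE 0.35, adjusted p = 0.00878). The gene was picked by its p over these libraries, and the DESeq2 calls use a subset of them. The gene was missing from the brain and liver tables.

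DN12975_c0_g1 (hit ENSDARP00000051145) stood at 21.7, 21.1 and 32.7 CPM in salt gills and at 42.5, 34.5 and 40.7 CPM in reference gills. The groups did not overlap, and the log2 fold change was -0.71 (SE 0.26; edgeR adjusted p = 1.00), with edgeR values of -0.93 without the library labelled salt 3 and -0.63 without reference 1. DESeq2 called it without the library labelled salt 3 (-0.96, SE 0.26, adjusted p = 0.0346). DN3689_c0_g1 (hit ENSDARP00000105027) stood at 13.2, 44.0 and 54.2 CPM in salt gills and at 53.2, 378 and 77.6 CPM in reference gills, where reference 2 set most of the difference. Salt minus reference was -2.32 on the log2 scale (SE 0.90; edgeR adjusted p = 1.00). It was -0.87 without reference 2, and -3.13 without both the library labelled salt 3 and reference 1, where DESeq2 called it (-3.15, SE 0.88, adjusted p = 0.0497). Summed over transcripts that list its hit first, the value was -0.35. No other gill gene listed that hit, so this sum covers only a part of the gene's own transcripts. DN6404_c0_g1 (hit ENSDARP00000119684) stood at 22.9, 123 and 23.7 CPM in salt gills and at 19.4, 16.9 and 19.2 CPM in reference gills, so that salt 2 alone was high. Its log2 fold change was 1.53 (SE 0.67; edgeR adjusted p = 1.00), with 0.30 without salt 2, 1.90 without the library labelled salt 3 and 1.56 without reference 1.

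Groups that did not overlap were counted as a further description. In 11 members every library labelled salt lay above every reference library (3.98% of all genes tested did), and in 3 members every one lay below (2.04% of all genes). The margin was often narrow: in DN6708_c0_g2 the lowest library labelled salt stood at 1197 CPM and the highest reference library at 1152 CPM, and these are the library labelled salt 3 and reference 1. Without the library labelled salt 3, 21 members lay above (10.7% of all genes) and 13 below (7.26% of all genes). Without reference 1, 35 lay above (10.2% of all genes) and 19 below (7.79% of all genes), and without both 40 lay above (16.3% of all genes) and 25 below (12.5% of all genes). Fewer libraries overlap less often, which raises the count over all genes too.

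**Figure D5:**
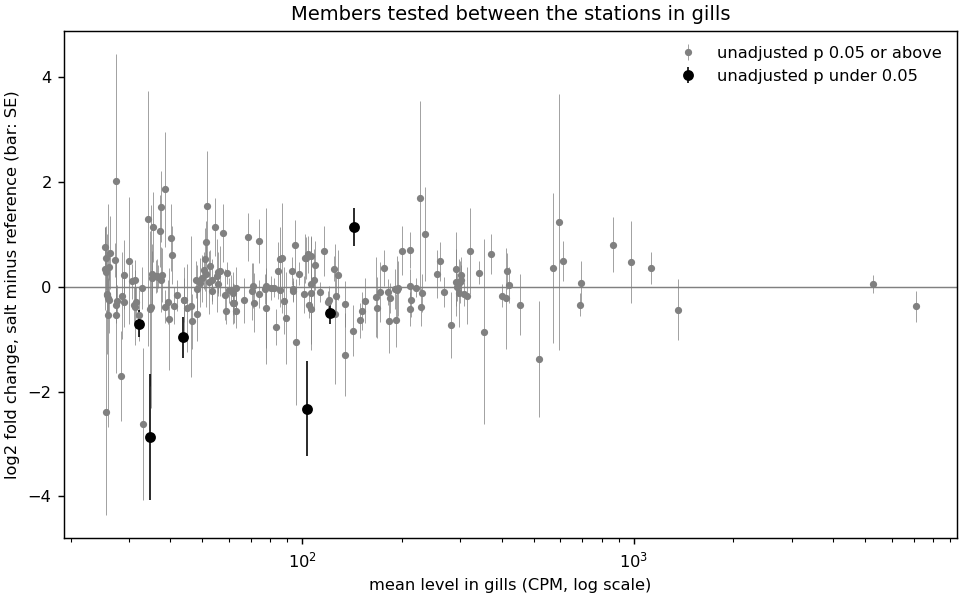
Log2 fold change, salt minus reference, with its standard error, against the mean level in gills (CPM, log scale) for the 197 members tested with edgeR. The 6 members at an unadjusted p under 0.05 are black, and their fold changes run from -2.87 to 1.13; none passed the adjusted threshold.

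The counts at an unadjusted p under 0.05 changed with the library left out. Without salt 1, salt 2, reference 2 and reference 3 in turn, edgeR gave 3, 1, 3 and 3 members. Over all genes these fits gave 174 of 23913, 78 of 24146, 408 of 23954 and 159 of 24307. DESeq2 was not run without these libraries. Its calls below therefore cannot be tied to the library labelled salt 3 or reference 1 rather than to leaving out any library. Without the library labelled salt 3, edgeR called 0 members (0% of all genes), gave 8 at an unadjusted p under 0.05 (3.22% of all genes), 4 higher (1.75% of all genes) and 4 lower (1.47% of all genes), and DESeq2 called 4 (0.718% of all genes). Without reference 1, edgeR called 0 members (0% of all genes), gave 21 at an unadjusted p under 0.05 (3.43% of all genes), 14 higher (2.05% of all genes) and 7 lower (1.38% of all genes), and DESeq2 called 11 (0.852% of all genes). Without both, edgeR called 0 members (0% of all genes), gave 19 at an unadjusted p under 0.05 (3.15% of all genes), 12 higher (1.75% of all genes) and 7 lower (1.4% of all genes), and DESeq2 called 8 (0.711% of all genes). Of the members called by DESeq2 without reference 1, several were low in reference 2 and 3 and level in the other 4 libraries. DN16069_c0_g1 (hit ENSDARP00000129005) stood at 144, 138 and 154 CPM in salt gills and at 160, 49.2 and 51.7 CPM in reference gills. DN4655_c0_g1 (hit ENSDARP00000085809) stood at 98.7, 129 and 141 CPM in salt gills and at 123, 39.5 and 39.6 CPM in reference gills. DN200_c0_g2, with values given above, had the same shape, and its log2 fold change without reference 1 was 1.67 (SE 0.18; DESeq2 adjusted p = 5.45e-17). In every salt library code the letter after the number is B, and in every brain and liver reference code it is C. The codes of reference gills 2 and 3 hold an A there where that of reference 1 holds a C, with no meaning labelled. The codes of the library labelled salt 3 and of reference 1 differ in that letter alone. With all gill libraries, B marks every salt code and A or C every reference code. Without reference 1, the letter is B at the salt station and A at the reference station. In both cases effects of the letter and of the station cannot be told apart.

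Single transcripts gave no call either. edgeR called 0 of 742 member transcripts that passed the filter, among 48486 gill transcripts of which 0% were called, and 9 member transcripts (1.21%) stood at an unadjusted p under 0.05, against 0.778% of all. It called 0 member transcripts (0% of all) also without the library labelled salt 3, without reference 1 and without both. At an unadjusted p under 0.05 these fits gave 39 member transcripts without the library labelled salt 3 (3.32% of all), 39 without reference 1 (3.74% of all) and 47 without both (5.73% of all). The biological coefficient of variation estimated by edgeR was 1.26 for gill transcripts and 0.726 for counts summed per gene. Its median per gene was 0.434 over the members and 0.583 over all genes, which include many at lower levels. DESeq2 was not run on transcripts.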

How the data were processed

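The deposited tables hold raw counts per assembled transcript, 1 table per tissue. The series' design text speaks of a de novo transcriptome, and the Trinity identifiers carry protein hits, a signal peptide tag and transmembrane tags. The submitters' processing notes list Trimmomatic and DESeq2 without versions. An aligner and a counting tool are not given in these sources. Transcripts were checked to reach 1 CPM in at least 2 libraries of their table. Libraries were grouped by title and matched to columns by library code; 0 columns were left out. Counts were summed per Trinity gene, and CPM used library totals. Each gill fit used edgeR 4.0.16 in R 4.3.3 (filterByExpr, TMM, quasi-likelihood F test, two-sided) with Benjamini-Hochberg adjustment over all genes, a threshold of 0.05, and SE taken as the log2 fold change divided by the square root of F. The code was tested on simulated counts. With 3 libraries of each station, biological spread is estimated from few fish. Alternatives were DESeq2 1.42.0, other scalings, no filter, left-out libraries, a replicate block and sums per hit. Floors of 3 counts cover counting error only, and p-values the spread between these fish.

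The members and lists were chosen with earlier results of these data known. Named genes were the 10 highest in gills, the 2 smallest p-values in each direction, the 3 highest and 3 lowest coefficients of variation, the genes at the thresholds and the 5 highest with a signal peptide tag. DN1117_c4_g1, DN8886_c0_g1, DN49107_c0_g1, DN42270_c0_g1, DN14732_c0_g1, DN14732_c0_g2, DN16069_c0_g1, DN4655_c0_g1 and the DN2986 genes were chosen after their values were seen. Reading the rule as a zebrafish first hit on every transcript kept 170 of the 200 members, and on the most abundant gill transcript 193.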

Additional observations from a re-analysis of the deposited data

How the results depend on the processing

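With 3 gill libraries per station, 2 of which, the library labelled salt 3 and reference 1, nearly match, calls of single members rest on few fish. edgeR called 0 members and 0 genes under every alternative run. At an unadjusted p under 0.05, edgeR gave 6 members with all libraries (241 of 22958 genes), and DESeq2 gave 10 (2.07% of all genes). Without both the library labelled salt 3 and reference 1, edgeR gave 19 (3.15% of all genes). With a library left out, it gave from 1 without salt 2 (78 of 24146 genes) to 21 without reference 1 (3.43% of all genes). The cause was not tested. DESeq2 called 4 members without the library labelled salt 3 (0.718% of all genes), 11 without reference 1 (0.852% of all genes) and 8 without both (0.711% of all genes). It was not run with any other library left out. These alternatives were chosen after seeing the data. So were the counts of members that did not overlap, of transcripts and of high libraries without the library labelled salt 3, reference 1 or both. With a library left out, the median log2 fold change of the members ran from -0.10 to 0.091, highest without salt 2.

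The labels do not say that the replicate numbers pair the fish. Deviations of same-numbered libraries correlated at -0.37, 0.21 and -0.0032 across genes, against 0.64 for the library labelled salt 3 with reference 1. The remaining differently numbered pairs ran from -0.53 to 0.37. Deviations were taken from each station's mean, so they depend on each other and cannot decide on pairing. With the replicate block, edgeR called 0 members, and 8 stood at an unadjusted p under 0.05, as did 276 of 22958 genes in all. Of these 8 members, 5 were higher and 3 lower, against 1 (0.588% of all genes) and 5 (0.462% of all genes) without the block. The directions over all genes were not counted with the block. The median log2 fold change of the members was -0.04.

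Some fold changes turned sign, among them those of DN200_c0_g2 and DN3245_c0_g1, which DESeq2 called as higher without reference 1 (8.54 on the log2 scale, SE 1.98, adjusted p = 0.00528 for DN3245_c0_g1). For DN3245_c0_g1 the value rests on salt 1 and the library labelled salt 3. Salt gill 2 stood at 2.85 CPM, near reference 2 and 3 at 1.84 and 2.61 CPM. edgeR did not call this gene without reference 1. DESeq2 did not call it without both reference 1 and the library labelled salt 3. Leaving out the references coded A left 1 reference, assumed to vary like the others. The log2 fold change was then -0.057 for DN6420_c1_g1, 0.38 for DN4060_c0_g1, -0.14 for DN200_c0_g2 and -0.35 for DN3245_c0_g1. With a library left out, it ran from -0.025 to 0.12 for DN6420_c1_g1, -0.79 to 0.47 for DN4060_c0_g1, -0.20 to 1.29 for DN755_c0_g1 and -0.23 to 0.60 for DN40805_c0_g1. Over the 10 members highest in gills and the 2 with the smallest p-values in each direction, 11 values turned sign and 185 kept it. Members named only for their variation were not in this count, and some of them turned sign too. DN61045_c0_g1 went from -0.015 with all libraries to 0.078 without the library labelled salt 3.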
